A study of Homo sapiens with 12 samples.

Results

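The genes described here encode the nuclear subunits of oxidative phosphorylation in 2 human leukemia cell lines, NB4 and Kasumi-1, incubated with OGP46 or with solvent. They were chosen by symbol alone: every gene whose symbol begins with NDUFA, NDUFB, NDUFC, NDUFS or NDUFV and a digit, the genes SDHA to SDHD, and symbols that begin with UQCR, COX4 to COX8 or ATP5. This gave 88 of the 20003 genes with values, 36 for complex I, 4 for complex II, 9 for complex III, 19 for complex IV and 20 for complex V. NDUFA4 and NDUFA4L2 were placed in complex IV. The symbols also cover 6 genes whose products are paralogs or partners and not accepted subunits, namely UQCRHL, COX7A2L, NDUFA4L2, ATP5IF1, ATP5MGL and ATP5S, and these stay in every count. NDUFC2-KCTD14 and ATP5MF-PTCD1, read-through genes that join a subunit gene to its neighbour, were left out. The 13 subunits encoded by mitochondrial DNA were not analysed here.

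NB4 cells come from an acute promyelocytic leukemia and carry PML-RARα, whereas Kasumi-1 cells come from an acute myeloid leukemia of type M2 with t(8;21) and carry AML1-ETO. Each group had 3 samples: NB4 control, NB4 OGP46, Kasumi-1 control and Kasumi-1 OGP46. OGP46, a kaurene diterpenoid made from oridonin, was used at 1 μM, with DMSO alone in the controls. The labels and the methods of the study give 48 h of incubation, whereas a legend of the study gives 72 h. Each leukemia type is represented by a single line, so a difference between the leukemia types cannot be told apart from a difference between these particular lines.

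Complexes I and II pass electrons from NADH and succinate to ubiquinone, complex III passes them on to cytochrome c, and complex IV hands them to oxygen. Complexes I, III and IV pump protons across the inner mitochondrial membrane as they do so, and complex V, the ATP synthase, lets the protons flow back through its membrane part, Fo, and makes ATP in its catalytic head, F1. Most of the subunits are encoded in the nucleus, and their genes are known to be transcribed together under factors such as NRF1, the ETS family factor GABP (also called NRF-2) and YY1. Some acute myeloid leukemia cells are known to depend on this pathway.

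The 12 samples had FPKM sums between 248207 and 310262, with 9339 to 9746 genes at 1 FPKM or more. FPKM scales fragments by transcript length and by the mapped total, so levels of different genes can be set side by side roughly. The annotation is not given and related genes can share fragments, so rankings and ratios between genes are approximate. Of the genes that mark Kasumi-1 cells, CD34, POU4F1, RUNX1T1 and TRH were all higher in Kasumi-1. Of the list for NB4, STAB1 was higher in NB4, HGF and FGF13 were higher in Kasumi-1, and PRODH was near 0 in both, so this list did not mark NB4 cells as a whole. In CD34 and TRH, NB4 control 3 stood apart from the other NB4 samples. It held 1.31 FPKM of CD34, against 0.0601 and 0.154 in the other NB4 controls and 93.3 to 99.9 in the Kasumi-1 controls. It also held 0.202 FPKM of TRH, which was at 0 in every other NB4 sample. POU4F1 did not set it apart, at 0.788 FPKM against 0.78 in NB4 control 2 and 0.819 in NB4 OGP46 2. RUNX1T1 was at 0.0762 FPKM in NB4 control 3 and at 0.0316 in NB4 control 2. The counts of subunit genes that passed, and the estimates of the genes described singly in NB4 and of the 6 genes with the largest differences between the lines, are also given without NB4 control 3.

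To show the DNA in front of genes whose levels differed between the lines, the 250 bases before the transcription start of 4 of the 6 with the largest differences are printed, from RefSeq on GRCh38.p14, 5′ to 3′ on the strand of the gene. The 4 were chosen because these bases hold a match to a motif. The windows of the other 2, NDUFA7 and NDUFA4L2, and the second window of NDUFS1 hold 0 matches in the 250 bases. Capitals mark a match to the palindrome bound by NRF1, GCGC and again GCGC with any 2 bases between, or to CCGGAAG, an ETS family core, read on either strand. These are NDUFS1 (chr2:206159445-206159694, minus strand) and NDUFB10 (chr16:1959288-1959537, plus strand), both higher in NB4, and ATP5F1C (chr10:7787927-7788176, plus strand) and ATP5PD (chr17:75046970-75047219, minus strand), both higher in Kasumi-1. Each window ends at the base just before the gene, which spans 206114817 to 206159444 on chromosome 2 for NDUFS1, 1959538 to 1961975 on chromosome 16 for NDUFB10, 7788177 to 7807801 on chromosome 10 for ATP5F1C and 75038863 to 75046969 on chromosome 17 for ATP5PD. RefSeq lists 2 windows for NDUFS1, and the printed one is the farther upstream.
NDUFS1: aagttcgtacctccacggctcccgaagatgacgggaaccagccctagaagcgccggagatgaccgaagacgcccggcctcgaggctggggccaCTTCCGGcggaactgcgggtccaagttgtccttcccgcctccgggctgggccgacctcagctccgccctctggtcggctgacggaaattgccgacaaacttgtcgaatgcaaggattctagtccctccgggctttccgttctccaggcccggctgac
NDUFB10: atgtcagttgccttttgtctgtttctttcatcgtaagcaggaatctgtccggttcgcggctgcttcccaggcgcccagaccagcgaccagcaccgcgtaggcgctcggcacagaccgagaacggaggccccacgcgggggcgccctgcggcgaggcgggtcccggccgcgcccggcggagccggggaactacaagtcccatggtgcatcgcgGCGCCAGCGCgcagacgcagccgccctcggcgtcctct
ATP5F1C: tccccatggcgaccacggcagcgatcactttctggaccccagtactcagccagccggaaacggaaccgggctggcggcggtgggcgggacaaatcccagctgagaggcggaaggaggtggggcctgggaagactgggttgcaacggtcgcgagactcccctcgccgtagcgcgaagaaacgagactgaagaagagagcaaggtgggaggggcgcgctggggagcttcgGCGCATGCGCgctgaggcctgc
ATP5PD: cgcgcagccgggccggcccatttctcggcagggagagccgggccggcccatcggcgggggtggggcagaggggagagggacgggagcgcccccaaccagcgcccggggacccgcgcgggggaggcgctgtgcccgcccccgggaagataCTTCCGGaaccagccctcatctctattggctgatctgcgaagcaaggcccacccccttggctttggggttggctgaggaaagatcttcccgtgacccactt

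In NDUFB10 and ATP5F1C the NRF1 letters began 38 and 22 bases before the start. In NDUFS1 and ATP5PD the ETS letters lay on the opposite strand, 157 and 101 bases before the start. Among these 4 chosen windows, each kind of match stood before a gene that was higher in NB4 and before one that was higher in Kasumi-1. Of the 88 genes, 87 were matched to a RefSeq gene, on 22 chromosomes with 12 of them on chromosome 19, and 70 had a promoter window. In windows of 300 bases, from 250 before to 50 after a start, the NRF1 letters were found for 25.7% of these 70 genes, against 20.1% of the 8236 genes with a window that averaged 1 FPKM or more and 8.32% of all 35116 windows. The ETS letters were found for 30% against 25.3% and 10.3%. The letters AAGATGGCG, the YY1 core, were found for 12.9% against 5.44% and 1.75%. At least 1 of the 3 motifs was present for 41 of the 70 genes, or 58.6%, against 43.7% of the genes at 1 FPKM or more. The 70 were not limited by level. For the 65 of them at 1 FPKM or more, the shares were 26.2% for NRF1, 32.3% for ETS, 13.8% for YY1 and 61.5% for any. The shares of the 35116 windows count windows and not genes. The ETS letters end with the AAG that the YY1 letters begin with, so both can be counted at the same place, and a gene with several windows counts once if any window matches.

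As to levels, 79 of the 88 genes averaged 1 FPKM or more over the 12 samples. In the NB4 controls these 79 ranged from 3.29 FPKM for NDUFS7 to 570 FPKM for ATP5F1B, with a median of 69.5, and in the Kasumi-1 controls from 5.17 for NDUFA5 to 643 for COX7C, with a median of 64.3. Across the 79 genes the log2 levels in both controls had a Pearson correlation of 0.93 and a Spearman correlation of 0.91, given as a description, since the genes share their libraries and are not independent.

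In complex I, the entry point for NADH, the highest mean over all samples was that of NDUFA1, an accessory subunit of the membrane arm. It stood at 182, 215 and 207 FPKM in the NB4 controls and at 226, 246 and 212 FPKM in the Kasumi-1 controls, ranges that overlap. In complex II, SDHD, a membrane anchor, stood at 94.8, 102 and 86.6 FPKM in the NB4 controls and at 53.9, 57 and 54.4 in the Kasumi-1 controls, without overlap.

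UQCRH, the hinge protein beside cytochrome c1, led complex III with 127, 129 and 117 FPKM in the NB4 controls and 165, 189 and 161 in the Kasumi-1 controls. UQCRH shares nearly all of its coding sequence with UQCRHL, listed at 27.2 ± 4.43 FPKM in the NB4 controls and 32.1 ± 2 in the Kasumi-1 controls (SD, n = 3), and reads of such a pair could have been split between them. COX7C, a small subunit of complex IV, stood at 455, 451 and 429 FPKM in the NB4 controls and at 621, 697 and 610 in the Kasumi-1 controls. ATP5F1B, the catalytic β subunit of the ATP synthase, stood at 541, 603 and 564 FPKM in the NB4 controls and at 453, 472 and 424 in the Kasumi-1 controls. COX7C was the highest of the 79 in Kasumi-1 and ATP5F1B in NB4.

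The other 9 genes had means below 1 FPKM. They were mostly the tissue-restricted partners of complex IV subunits: COX6A2, COX7A1 and COX7B2 were listed at 0 in all 12 samples, COX4I2 was above 0 in 1 sample, at 0.0651 FPKM, and COX6B2 in 2, at 0.056 and 0.0571 FPKM. COX8C, the testis form, ranged from 0 to 0.348 FPKM, and NDUFA4L2, a hypoxia-induced relative of NDUFA4, from 0.0827 to 0.718 FPKM. ATP5MGL and ATP5S ranged from 0.246 to 1.02 FPKM and from 0.646 to 1.29 FPKM. The ubiquitous forms were abundant in the same cells: COX4I1 at 99.9 ± 10 FPKM in the NB4 controls and 103 ± 7.96 in the Kasumi-1 controls, COX7A2 at 83.3 ± 6.43 and 75.6 ± 3.63, COX8A at 405 ± 20.1 and 311 ± 41.4, and NDUFA4 at 64.6 ± 7.95 and 83.1 ± 4.59 (SD, n = 3). C15orf48, whose protein can take the place of NDUFA4, had 0.121 ± 0.0788 FPKM in the NB4 controls and 0.234 ± 0.14 with OGP46 (SD, n = 3), and was at 0 in 5 of the 6 Kasumi-1 samples.

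Does OGP46 change the subunit genes in NB4 cells? None of the 82 genes that could be tested rose or fell with OGP46 in NB4. By limma on log2(FPKM + 0.1), a gene counted as changed when its adjusted p was below 0.05 and it moved by 0.58 or more on the log2 scale (1.49-fold). Among all 11750 genes tested, 1.45% rose and 0.111% fell by this rule. At an unadjusted p below 0.05, 9 of the 82 were higher with OGP46 (27.5% of all genes) and 0 lower (1.61%). The 3 OGP46 samples lay above all 3 controls in 15 of the 82 (32.7% of all genes) and below them in 0 (1.91%).

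The log2 fold changes of the 82 genes had a median of 0.10 and all genes tested a median of 0.18. Of the 82, 18 were above the median of all genes, among which 50% are by definition. As deposited the median over the 82 genes was thus above 0, but it was -0.03 after TPM scaling, -0.12 after median centring and -0.04 after quantile normalization, and the median of all genes moved with it, to 0.06, -0.04 and -0.01. By complex, the medians were 0.09 for complex I, 0.09 for complex II, 0.10 for complex III, 0.13 for complex IV and 0.07 for complex V. Above the median of all genes were 9 of 36 tested genes of complex I, 1 of 4 of complex II and 1 of 9 of complex III. For complex IV it was 4 of 13 and for complex V 3 of 20. Within complex V, all 5 subunits of the F1 head were below that median, with a median of 0.05. Against genes that averaged 20 FPKM or more, a limit chosen after seeing the data, the distance to the median of all genes shrank from -0.08 to -0.04, with 22 of 71 subunit genes above that median.

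With FPKM as deposited, the intervals were narrow. For 77 of the 79 genes at 1 FPKM or more, the 95% confidence interval of the log2 fold change lay within 0.58 of 0 on either side. The exceptions were ATP5MC1 and NDUFS4. The intervals were not counted after other scalings, which moved the estimates, so this count holds for FPKM as deposited only. The same limit applies to the interval counts given for Kasumi-1 and for the interaction. The estimates of the 79 ranged from -0.28 to 0.31.

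Among the 79 genes at 1 FPKM or more, the lowest estimate in NB4 was that of ATP5MC1, a gene for the c subunit of the membrane ring of the ATP synthase. It stood at 93.4, 118 and 83.7 FPKM in the controls and at 69.9, 97.5 and 75.6 FPKM with OGP46. The groups overlapped, but each OGP46 sample was below the control of the same number. The log2 fold change was -0.28 ± 0.16 (SE) with an adjusted p of 0.26. With the replicate number as a block it was 0.0302, at a size below the 0.58 threshold. ATP5MC2 and ATP5MC3 encode the same mature protein, and their estimates were 0.07 ± 0.07 and 0.05 ± 0.12.

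NDUFB10, an accessory subunit of the membrane arm of complex I, came next at the low end. It stood at 91.2, 107 and 94.4 FPKM in the NB4 controls and at 73.8, 97.5 and 86.1 FPKM with OGP46, with overlap and a log2 fold change of -0.19 ± 0.11 (adjusted p = 0.29). NDUFB1, of the same arm, stood at 76.2, 102 and 83.3 FPKM in the controls and at 74.6, 78.5 and 76.5 FPKM with OGP46. Its log2 fold change was -0.18 ± 0.11, and the groups overlapped through the lowest control.

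Toward the upper end of the 79 in NB4 stood NDUFS4 and SDHC. NDUFS4, an accessory subunit needed for a stable matrix arm of complex I, had 14.4, 12.1 and 10.8 FPKM in the controls and 12.3, 18 and 16.3 FPKM with OGP46. The groups overlapped, and the log2 fold change was 0.31 ± 0.16 (adjusted p = 0.22). SDHC, a membrane anchor of complex II, had 20, 17.8 and 18.1 FPKM in the controls and 22.4, 22.8 and 24.1 FPKM with OGP46. Here all OGP46 samples were above all controls, and the log2 fold change was 0.31 ± 0.08, with an adjusted p of 0.0728, or 0.0283 with the block.

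With the block and no minimum fold change, 2 of the 82 genes were higher, SDHC among them (21% of all genes), and 1 was lower, ATP5MC1 (1.88%). With the block and the minimum fold change, 0 of the 82 passed, while the share of all genes rose to 5.06% higher and 1.15% lower. The signs of the estimates for the 5 genes described in NB4 were the same under TPM scaling and median centring, both with the block. The sizes moved with the scaling, however. With median centring and the block, ATP5MC1 was at -0.50 (adjusted p = 0.00219), NDUFB10 at -0.41 (0.00445) and NDUFB1 at -0.40 (0.0248), while NDUFS4 and SDHC were both at 0.09 (0.66 and 0.29). With TPM scaling and the block they were at -0.41 (0.00268), -0.32 (0.00779), -0.30 (0.0389), 0.19 (0.36) and 0.18 (0.0666). All these sizes were below the fold threshold.

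Without NB4 control 3, 0 of the 82 passed in either direction, and the estimates were -0.39 for ATP5MC1, -0.21 for NDUFB10, -0.20 for NDUFB1, 0.21 for NDUFS4 and 0.29 for SDHC. Other single samples moved the values of all of these genes but SDHC by more than 1.5 times. ATP5MC1 was at -0.14 without NB4 control 2, at -0.18 without NB4 OGP46 1 and at -0.42 without NB4 OGP46 2. NDUFB10 was at -0.12, -0.08 and -0.29 without the same samples. NDUFB1 was at -0.06 without NB4 control 2 and at -0.27 without NB4 control 1, and NDUFS4 at 0.47 without NB4 OGP46 1 and at 0.20 without NB4 OGP46 2. For SDHC the values with 1 sample left out lay between 0.28 and 0.36.

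**Figure D1:**
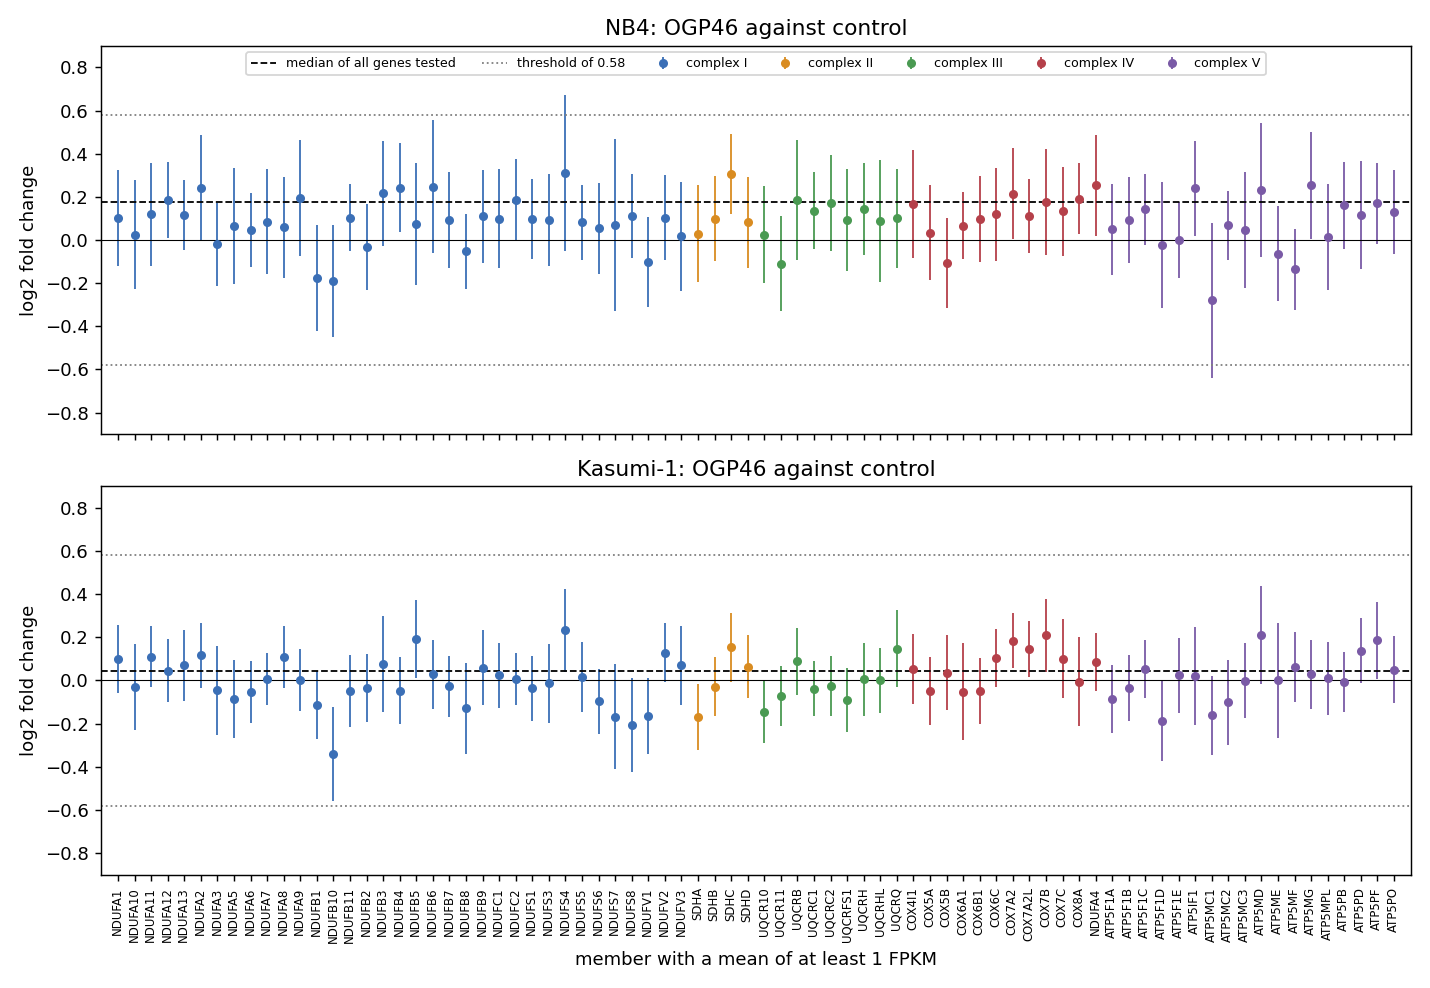
Log2 fold change of OGP46 against control (vertical axis, on log2(FPKM + 0.1)) for 78 of the 79 subunit genes that averaged 1 FPKM or more (horizontal axis, colored by complex), in NB4 (top) and Kasumi-1 (bottom). Points are limma estimates and bars their 95% confidence intervals, from 3 samples against 3. The dashed line is the median of all genes tested, 0.18 in NB4 and 0.05 in Kasumi-1, and the dotted lines mark 0.58. Every point lies between the dotted lines.

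The same question was asked in Kasumi-1 cells. None of the 83 subunit genes tested rose or fell, and of all 11835 genes 0.0169% rose and 0.0169% fell. At an unadjusted p below 0.05 by limma, 6 of the 83 were higher with OGP46 (12% of all genes) and 4 lower (3.65%). The median log2 fold change of the 83 was 0.01 and that of all genes 0.05, with 31 of the 83 above it. The median was 0.03 after TPM scaling, -0.06 after median centring and 0.01 after quantile normalization. The distance to the median of all genes was -0.04, but 0.0033 after quantile normalization, and it was 0.0053 among genes that averaged 20 FPKM or more, where 38 of 70 subunit genes were above that median. By complex, the medians were 0.00 for complex I, 0.02 for complex II, -0.03 for complex III, 0.07 for complex IV and 0.01 for complex V. The 95% confidence interval of the log2 fold change lay within 0.58 of 0 for all 79 genes at 1 FPKM or more, and the estimates ranged from -0.34 to 0.23.

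NDUFB10 had the lowest estimate of the 79 genes in Kasumi-1. It stood at 38.1, 51.6 and 43.7 FPKM in the controls and at 33.4, 35.6 and 35.5 FPKM with OGP46. All OGP46 samples were below all controls. The log2 fold change was -0.34 ± 0.10 (SE) with an adjusted p of 0.15, and with the replicate block the adjusted p was 0.0342, the 1 gene of the 83 that was lower with the block and no minimum fold change (1.12% of all genes). Its size stayed below the threshold, and 0 of the 83 passed with the block and the minimum fold change (0.27% of all genes higher and 0.346% lower). The estimate for NDUFB10 was negative in both lines, and the interaction, 0.15 ± 0.16, did not pass.

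NDUFS8, an iron-sulfur core subunit of complex I, stood at 55.5, 65 and 53.6 FPKM in the Kasumi-1 controls and at 50.5, 56.1 and 44.4 FPKM with OGP46, with overlap and a log2 fold change of -0.21 ± 0.10. ATP5F1D, the δ subunit of the central stalk of the ATP synthase, stood at 69.6, 82.7 and 66.8 FPKM in the controls and at 60.9, 64.8 and 66 FPKM with OGP46. Its groups did not overlap, by less than 1 FPKM, and the log2 fold change was -0.19 ± 0.08 (adjusted p = 0.31). Together with NDUFB10 and SDHA, the flavoprotein of complex II, ATP5F1D made up the 3 of 83 genes that were lower without overlap (5.23% of all genes), and 7 were higher without overlap (17.4%).

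The highest estimates of the 79 genes in Kasumi-1 were those of NDUFS4, ATP5MD and COX7B. NDUFS4 stood at 20.9, 26.3 and 23.3 FPKM in the controls and at 29.3, 27 and 26.2 FPKM with OGP46, with a log2 fold change of 0.23 ± 0.09 (adjusted p = 0.24) and the groups overlapping by a single control. ATP5MD, a small membrane subunit of the ATP synthase, stood at 57.9, 68.8 and 55 FPKM in the controls and at 77.9, 70.2 and 62.1 FPKM with OGP46, with overlap and a log2 fold change of 0.21 ± 0.10. COX7B, a small subunit of complex IV, stood at 273, 285 and 251 FPKM in the controls and at 330, 315 and 290 FPKM with OGP46. Its groups did not overlap, and the log2 fold change was 0.21 ± 0.08 (adjusted p = 0.23, or 0.0793 with the block).

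In Kasumi-1, too, these values moved with scaling and with single samples, all at sizes below the fold threshold. With median centring and the block, NDUFB10 was at -0.41 (adjusted p = 0.00368), NDUFS8 at -0.27 (0.0127) and ATP5F1D at -0.25 (0.0139), while NDUFS4, ATP5MD and COX7B were at 0.17, 0.14 and 0.14 (0.16, 0.15 and 0.0532). With TPM scaling and the block, NDUFB10 was at -0.32 (0.0078), NDUFS8 at -0.19 (0.0252) and ATP5F1D at -0.17 (0.0581), and NDUFS4, ATP5MD and COX7B were at 0.25, 0.23 and 0.23 (0.0362, 0.0267 and 0.00578). Without Kasumi-1 control 2 the estimates were -0.23 for NDUFB10, -0.12 for NDUFS8 and -0.09 for ATP5F1D. NDUFS8 was also at -0.12 without Kasumi-1 OGP46 3, NDUFS4 at 0.15 without Kasumi-1 control 1, and ATP5MD at 0.13 without Kasumi-1 OGP46 1 and at 0.14 without Kasumi-1 control 3.

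Whether OGP46 acted differently on these genes in NB4 and Kasumi-1 was tested by the interaction term of a model of the 12 samples. By limma, 0 of the 82 genes tested passed, and 0 of all 12309 genes (0%). At an unadjusted p below 0.05, 3 of the 82 had a higher fold change in NB4 (9.95% of all genes), NDUFB4 and NDUFS8 among them, and 0 a lower one (0.999%). The largest difference was that of NDUFS8, at 0.32 ± 0.14 (SE, adjusted p = 0.44), between an estimate of 0.11 in NB4 and of -0.21 in Kasumi-1. With the block, 1.4% of all genes had a higher and 0.106% a lower fold change in NB4, and 0 of the 82 passed. For 77 of the 79 genes at 1 FPKM or more, the 95% confidence interval of the interaction lay within 0.58 of 0, and for NDUFS7 and NDUFS8 it did not. Without NB4 control 3, 0 of the 82 passed.

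The cell lines themselves differed. Of 83 subunit genes tested, 12 were higher and 12 lower in the NB4 controls than in the Kasumi-1 controls, which is 28.9%, against 52.4% of all 12302 genes (22.7% higher and 29.7% lower). Without NB4 control 3, which held traces of CD34 and TRH, the counts were 15 higher and 12 lower. The split depended on scaling: with TPM scaling 20 were higher and 9 lower, with median centring 18 and 10, and with quantile normalization 15 and 14. By the adjusted p alone, 26 were higher (33.1% of all genes) and 31 lower (41.4%). The groups did not overlap for 27 genes that were higher in NB4 (34.6% of all genes) and 31 that were lower (43.1%).

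As a description of spread, the interquartile range of the log2 difference was 0.80 for the 83 genes and 1.28 for all genes tested. At a mean of 20 FPKM or more, it was 0.71 and 0.94, and 24.6% of the subunit genes passed, against 40.9% of all genes. Of the 79 genes at 1 FPKM or more, 56 differed by less than 0.58 and 5 by more than 1. For 44 of the 79, the difference between the lines was larger in size than the largest OGP46 change in either line, 0.34, although these comparisons share the control samples.

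In complex I, 8 of 36 genes were higher in NB4 (22.7% of all genes) and 4 lower (29.7%). The median log2 difference was 0.14, against -0.10 for all genes. Counts by complex were made with FPKM as deposited only, and the split over all complexes depended on scaling. The largest difference of this complex was that of NDUFS1, the largest iron-sulfur core subunit. It stood at 26.4, 25.7 and 23.4 FPKM in the NB4 controls and at 9.24, 9.83 and 9.62 FPKM in the Kasumi-1 controls. The groups were far apart, with a log2 difference of 1.38 ± 0.08 (SE), or 2.61-fold (adjusted p = 4.45e-07).

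NDUFB10 was also higher in NB4, at the values given above, by 1.14 ± 0.11, or 2.2-fold (adjusted p = 1.91e-05). NDUFA7, an accessory subunit of the matrix arm, had 155, 189 and 158 FPKM in the NB4 controls and 76.5, 78.9 and 80.5 in the Kasumi-1 controls, a difference of 1.08 ± 0.09. The other 5 genes higher in NB4 were NDUFA5, NDUFA10, NDUFA12, NDUFB6 and the core flavin subunit NDUFV1, with log2 differences of 0.63 to 0.88. Those higher in Kasumi-1 were NDUFS4, NDUFB5, NDUFB9 and the core iron-sulfur subunit NDUFS7, with log2 differences of -0.86 to -0.92. Genes of the same arm thus differed in both directions.

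In complex II, SDHA and SDHD were higher in NB4, by 0.78 ± 0.09 and 0.77 ± 0.08. SDHB, the iron-sulfur subunit, had an estimate of -0.09 ± 0.07, and SDHC of -0.38 ± 0.07. In complex III, 0 of 9 genes were higher in NB4 (22.7% of all genes) and 1 was lower (29.7%), UQCR11, a small subunit, by -0.86 ± 0.07. In complex IV, COX6A1 was higher in NB4, and COX6B1, COX6C and NDUFA4L2 were lower. COX6A1 stood at 415, 405 and 421 FPKM in the NB4 controls and at 272, 304 and 244 in the Kasumi-1 controls, while COX6B1 stood at 143, 155 and 129 and at 247, 282 and 263. Both are small nuclear subunits, and their ratio was 2.93 ± 0.32 in the NB4 controls and 1.04 ± 0.0946 in the Kasumi-1 controls (SD, n = 3).

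NDUFA4L2 had the largest difference of complex IV, at -1.31 ± 0.27, but from low levels of 0.173, 0.0827 and 0.119 FPKM in the NB4 controls and 0.285, 0.522 and 0.594 in the Kasumi-1 controls. With a pseudocount of 1 in place of 0.1 its difference was -0.38 and no longer passed.

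In complex V, 1 of 20 genes was higher in NB4 (22.7% of all genes) and 4 were lower (29.7%). ATP5F1C, the γ subunit that turns inside the F1 head, had the largest difference of all. It stood at 76.6, 79.5 and 75.6 FPKM in the NB4 controls and at 221, 236 and 224 FPKM in the Kasumi-1 controls, with a log2 difference of -1.56 ± 0.06 (SE), or 2.94-fold (adjusted p = 1.03e-07). In the same samples ATP5F1B was 0.34 ± 0.08 higher in NB4, below the fold threshold. The ratio of ATP5F1B to ATP5F1C was 7.37 ± 0.277 in the NB4 controls and 7.13 ± 0.331 with OGP46, against 1.98 ± 0.0814 and 1.86 ± 0.0146 in Kasumi-1 (SD, n = 3). ATP5F1A, the α subunit, had a difference of -0.58 ± 0.08, just short of the threshold.

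ATP5PD, of the stalk that holds the head still, had 71, 79.7 and 60.7 FPKM in the NB4 controls and 143, 164 and 148 in the Kasumi-1 controls, a difference of -1.11 ± 0.10. ATP5F1D and ATP5MC1 were also lower in NB4, by -0.71 ± 0.12 and -0.76 ± 0.13. ATP5MF, the f subunit in the membrane, was higher in NB4, at 354 ± 22.2 FPKM against 181 ± 12 (SD, n = 3), with a log2 difference of 0.96 ± 0.08. Without NB4 control 3, the differences were 1.43 for NDUFS1, 1.16 for NDUFB10, 1.12 for NDUFA7, -1.54 for ATP5F1C, -1.30 for NDUFA4L2 and -1.01 for ATP5PD.

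**Figure D2:**
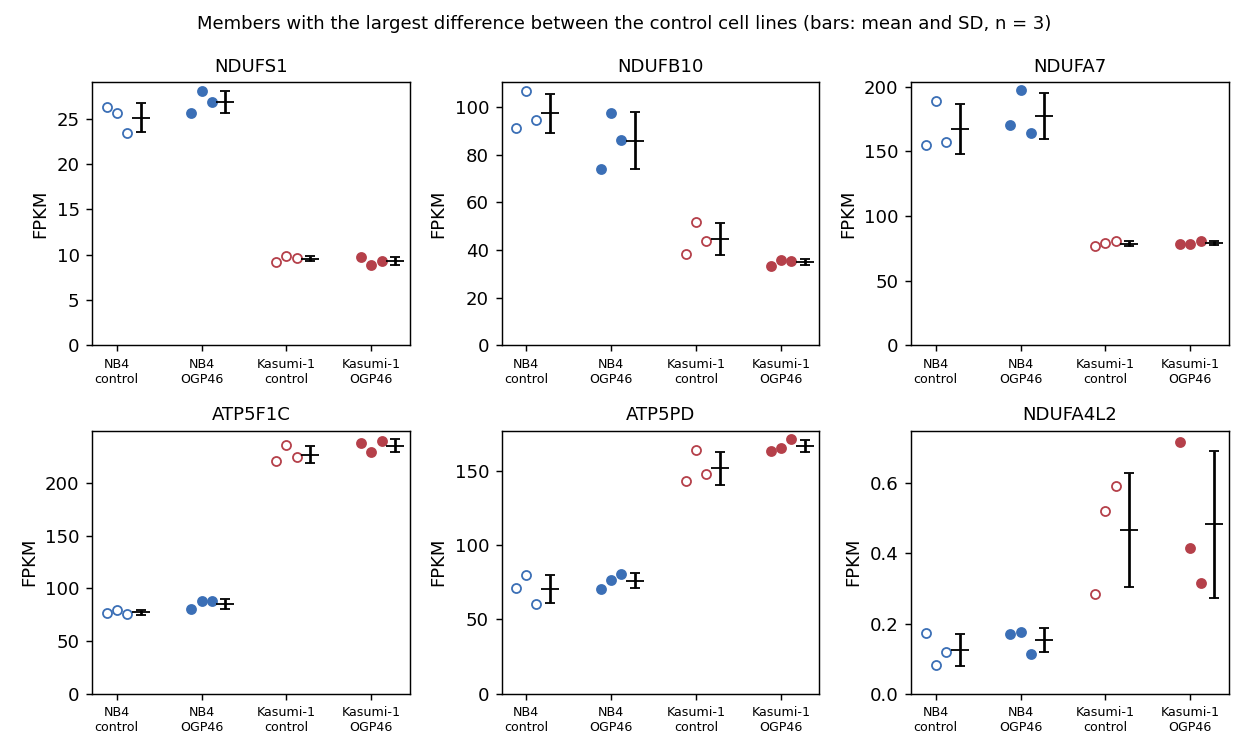
FPKM (vertical axes, from 0) in the 4 groups (horizontal axes) for the 6 subunit genes with the largest difference between the control lines. Open points are control samples, filled points OGP46 samples, and the bars the mean and SD of 3 samples. In NDUFS1, NDUFB10 and NDUFA7 all NB4 samples lie above all Kasumi-1 samples, and in ATP5F1C, ATP5PD and NDUFA4L2 all lie below.

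**Figure D3:**
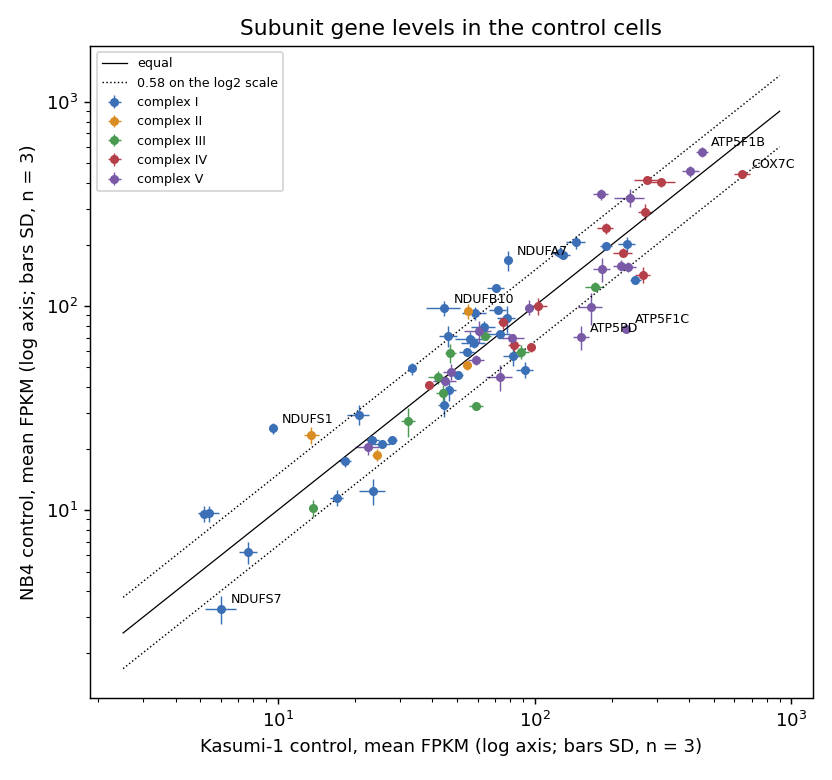
Mean FPKM of the 79 subunit genes that averaged 1 FPKM or more in the Kasumi-1 controls (horizontal log axis) and in the NB4 controls (vertical log axis), colored by complex, with bars for the SD of 3 samples. The solid line marks equal levels and the dotted lines a log2 difference of 0.58, and 56 of the 79 genes lie between the dotted lines. ATP5F1C and ATP5PD lie below them, and NDUFS1, NDUFB10 and NDUFA7 above.

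Summed over the 88 genes, the share of the FPKM of a sample was 3.32 to 3.54% in the NB4 controls and 3.22 to 3.41% with OGP46, ranges that overlap, although each OGP46 sample was below the control of the same number, as it was for complexes I and V. In Kasumi-1 it was 2.90 to 2.98% in the controls and 2.99 to 3.02% with OGP46, which do not overlap but differ by little. By complex, the Kasumi-1 ranges did not overlap for complex IV, at 0.862 to 0.899% in the controls and 0.918 to 0.931% with OGP46. They overlapped for complexes I, II, III and V. In the share of all 88 genes, the NB4 controls were above the Kasumi-1 controls. The sum of FPKM itself was lower in the NB4 controls, at 248207 to 256268, than in the Kasumi-1 controls, at 279879 to 310262, and the summed FPKM of the 88 genes overlapped, at 8367 to 9074 and 8133 to 9239. By complex, the share was 1.04 ± 0.0428% for complex I in the NB4 controls against 0.805 ± 0.0119% in the Kasumi-1 controls, 0.974 ± 0.02% against 0.878 ± 0.0193% for complex IV and 1.14 ± 0.0495% against 1 ± 0.0205% for complex V (SD, n = 3). For complex II the share was 0.074 ± 0.00335% against 0.0504 ± 0.00132%, without overlap. For complex III the ranges of the groups overlapped, with 0.184 ± 0.00926% and 0.192 ± 0.00287%. In bulk RNA, a difference in the number of cells of a kind and in RNA per cell cannot be told apart.

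**Figure D4:**
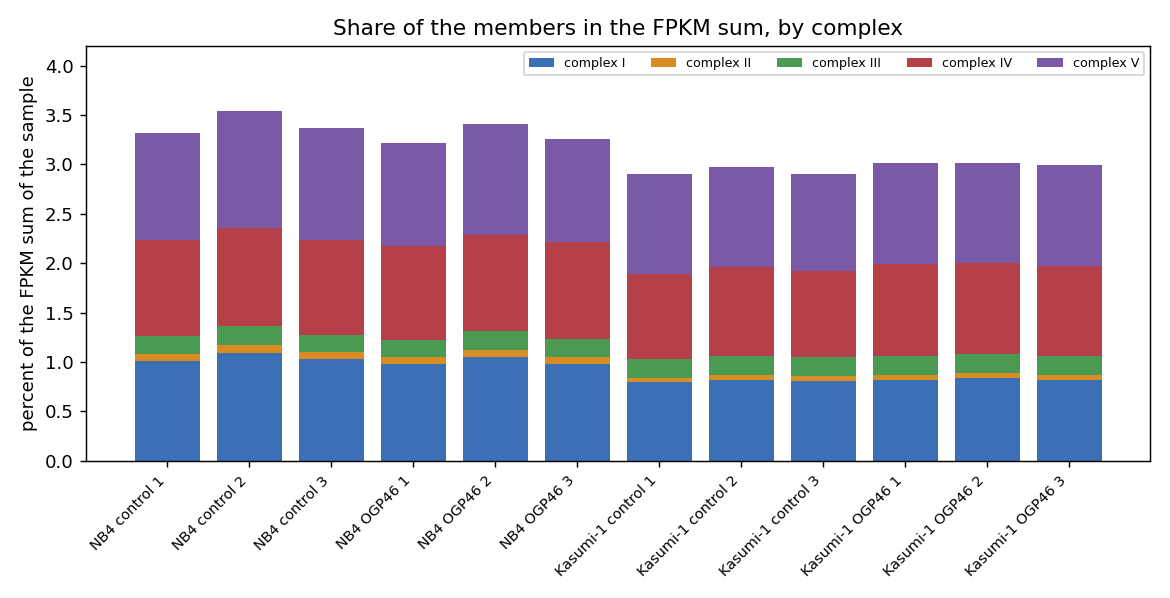
Share of the FPKM sum (vertical axis, percent, from 0) held by the 88 subunit genes in each of the 12 samples (horizontal axis), stacked by complex. The NB4 samples reach 3.22 to 3.54% and the Kasumi-1 samples 2.90 to 3.02%.

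Genes that build or control the complexes were also tested by limma. Of 49 assembly factors, 0 passed with OGP46 in NB4 (1.56% of all genes) and 0 in Kasumi-1 (0.0338%). With the block, 0 of the 49 passed in either line as well (6.21% and 0.617% of all genes). The median log2 fold changes of the 49 were 0.10 and 0.05. At an unadjusted p below 0.05, 2 were higher and 0 lower in NB4 (27.5% and 1.61% of all genes), and 4 were higher and 1 lower in Kasumi-1 (12% and 3.65%). The 11 tested regulators of mitochondrial gene expression included NRF1, GABPA, YY1, ESRRA and TFAM. With OGP46, 0 of the 11 passed in NB4 (1.56% of all genes) and 0 in Kasumi-1 (0.0338%). Between the lines 0 passed, where 52.4% of all genes did. At an unadjusted p below 0.05, 2 of the 11 were higher with OGP46 in NB4 and 0 lower (27.5% and 1.61% of all genes). In Kasumi-1, 0 were higher and 0 lower (12% and 3.65%). Between the controls, 1 was higher and 3 lower in NB4 than in Kasumi-1 (34% and 42.3% of all genes). PPARGC1A, the coactivator PGC-1α, was at 0.00871 FPKM at most. Between the control lines, 6 of the assembly factors were higher in NB4 (22.7% of all genes), namely NDUFAF1 and TMEM126B for complex I, BCS1L for complex III, COX10 and SCO1 for complex IV and ATPAF2 for complex V. A further 6 were lower (29.7%), SDHAF1 for complex II and COA5, COX11, COX19, COX20 and PET100 for complex IV. The largest difference of the 12 was that of NDUFAF1, at 11.2 ± 1.5 FPKM in the NB4 controls and 3.61 ± 0.924 in the Kasumi-1 controls (SD, n = 3), a log2 difference of 1.63 ± 0.17 (SE). Of 3 further nuclear genes of the chain, NDUFAB1, the acyl carrier subunit of complex I, and CYCS, cytochrome c, were higher in NB4, by 0.61 ± 0.07 and 0.82 ± 0.09, and CYC1, cytochrome c1 of complex III, was lower, by -0.99 ± 0.10.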

How the data were processed

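The 88 genes and all gene lists were chosen with earlier results of these data known. Libraries were made from poly(A) RNA with a stranded kit. The authors deposited 1 FPKM value per gene symbol and sample, 20030 rows, of which 27 symbols had turned into dates and were dropped. The submitters' processing notes name hg38, Trimmomatic, HISAT2, Cufflinks and HTSeq. Their versions, the annotation and the use of strand are not given in the sources used here. Read depth is unknown, so no counting interval is given and precision rests on 3 samples a group. The labels do not say that these came from separate cultures, although a legend of the study speaks of independent experiments, and p-values measure only the spread between them. An exact permutation test of 3 against 3 cannot go below p = 0.1 and was not used. Paralogs, processed pseudogenes and read-through genes can share fragments with subunit genes, such as UQCRH with UQCRHL and ATP5MG with ATP5MGL.

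Log2(FPKM + 0.1) was compared by limma 3.58.1 in R 4.3.3 (empirical Bayes, trend in the variance) for genes that averaged 0.1 FPKM or more in the samples compared. P-values were adjusted by Benjamini-Hochberg over all genes tested. The threshold was 0.05 for the adjusted p and 0.58 for the size of the log2 fold change, and ± after a log2 value is its standard error. The interaction was fitted on 12 samples. Replicate numbers paired control and OGP46 samples: deviations of same-numbered samples correlated at 0.20 to 0.62 in NB4 and 0.16 to 0.40 in Kasumi-1. For genes that averaged 5 FPKM or more, the correlations were 0.44 to 0.85 in NB4 and 0.42 to 0.62 in Kasumi-1. The study names no pairing, so the fit without the block comes first. The scripts were tested on simulated data. Genes described singly were, per OGP46 comparison, the 3 in each direction farthest from the median of all genes among those at 1 FPKM or more, the 3 in each direction farthest apart between the lines, the highest of each complex and the tissue isoforms of complex IV. The values of 1 gene that this rule selects are not reported here. Others, such as SDHA, ATP5MF and the ratios, were named after their values were seen, except where they passed the test. Alternatives were other pseudocounts, minimum means, scalings and moderation, the block, adjusted p alone and leaving out each sample.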

Additional observations from a re-analysis of the deposited data

How the results depend on the processing

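The count of subunit genes changed by OGP46 was 0 in each direction in NB4, in Kasumi-1 and in the interaction under all alternatives run, including each sample left out. Between the control lines, 12 were higher and 12 lower in NB4. TPM scaling gave 20 higher, and the adjusted p alone gave 26 higher and 31 lower, since it drops the minimum fold change. Leaving out each control in turn gave 11 to 15 higher and 12 to 15 lower. The distance of the subunit genes' median from that of all genes between the lines was 0.05 and became -0.056 with quantile normalization, of which the cause was not tested. With a sample left out it ranged from 0.01 to 0.09 between the lines, from -0.11 to -0.04 in NB4, from -0.06 to 0.00 in Kasumi-1 and from -0.07 to 0.01 in the interaction.

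Replicate numbers did not pair the control lines (correlations of -0.05 to 0.02), and the block gave the same counts there, 12 and 12. In the OGP46 comparisons the block raised the share of all genes that passed, from 1.56% to 6.21% in NB4, from 0.0338% to 0.617% in Kasumi-1 and from 0% to 1.5% in the interaction, with 0 subunit genes among them. The difference of NDUFA4L2 between the lines failed the fold threshold with a pseudocount of 1, at -0.38. FPKM carry no depth, so the precision of low genes could not be judged from counts, and without a spike-in or total RNA per cell a change shared by all genes cannot be told apart from scaling.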
